A study of Mus musculus with 2 samples.

Results

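Intermediate progenitors are the Eomes-positive precursors of the embryonic cortex that stand between radial glia and excitatory neurons. They were selected here from single-nucleus counts as barcodes with at least 500 detected genes and at least 1 unique molecular identifier (UMI, 1 counted RNA molecule) of Eomes. At least 2 of the 6 partner genes Neurog2, Insm1, Gadd45g, Btg2, Mfap4 and Hes6 also had to be detected, with 0 UMIs of the 4 exclusion genes Trp73, Lhx1, Dlx2 and Pdgfra. This gate held 95 of 17198 barcodes, 48 of 10731 in the NCKO-labelled library and 47 of 6467 in the F/F-labelled library. The study measured nuclear RNA of micro-dissected embryonic mouse neocortex in 2 libraries, made with 10x Genomics 3′ version 3 chemistry. One carries the genotype label MEN1-NCKO, and its reference the label MEN1-F/F. The sources used here give neither the Cre driver nor the deleted part of Men1, and neither the embryonic age nor how many embryos were pooled. Each label has a single library and so no replicate spread, and no test was run: values stand side by side with 95% intervals that cover counting error only, and no difference can be assigned to the genotype rather than to the library.

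Radial glia divide at the ventricular surface and give rise to intermediate progenitors, which lose contact with that surface and divide again in the subventricular zone, mostly to make neurons. The transcription factor Eomes (Tbr2) marks this stage, Neurog2 and Insm1 drive entry into it, and Pax6 and Sox2 are features of the radial glia that precede it. Neurod2, Neurod6 and Tbr1 belong to the neurons that follow. Men1 encodes menin, a scaffold of histone H3 lysine methyltransferase complexes that contain the MLL proteins, and the series title names the Eph receptor gene Epha4 as its target.

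The values that chose the nuclei are given as a description. Any barcode with Eomes, whatever its partners, was counted 146 times in NCKO (1.36% of barcodes) and 167 times in F/F (2.58%). Eomes had 81 UMIs in the 48 NCKO nuclei and 93 UMIs in the 47 F/F nuclei. Of the members, 27 NCKO nuclei and 18 F/F nuclei held exactly 1 Eomes UMI, and 34 NCKO and 28 F/F nuclei held exactly 2 partner genes, so many lie at the threshold. Just outside it, 37 NCKO nuclei and 53 F/F nuclei had Eomes with 1 partner gene, and 124 NCKO and 86 F/F nuclei had 2 or more partners without an Eomes UMI. Neurog2, the proneural factor, was detected in 30 NCKO and 29 F/F members. Mfap4, a microfibril-associated gene, was detected in 23 NCKO and 31 F/F members, and Gadd45g, a growth arrest gene, in 20 NCKO and 11 F/F members. The exclusion genes removed 7 of 55 otherwise eligible NCKO nuclei (4 with Dlx2, 2 with Pdgfra and 1 with Trp73) and 0 of 47 F/F nuclei.

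**Figure D1:**
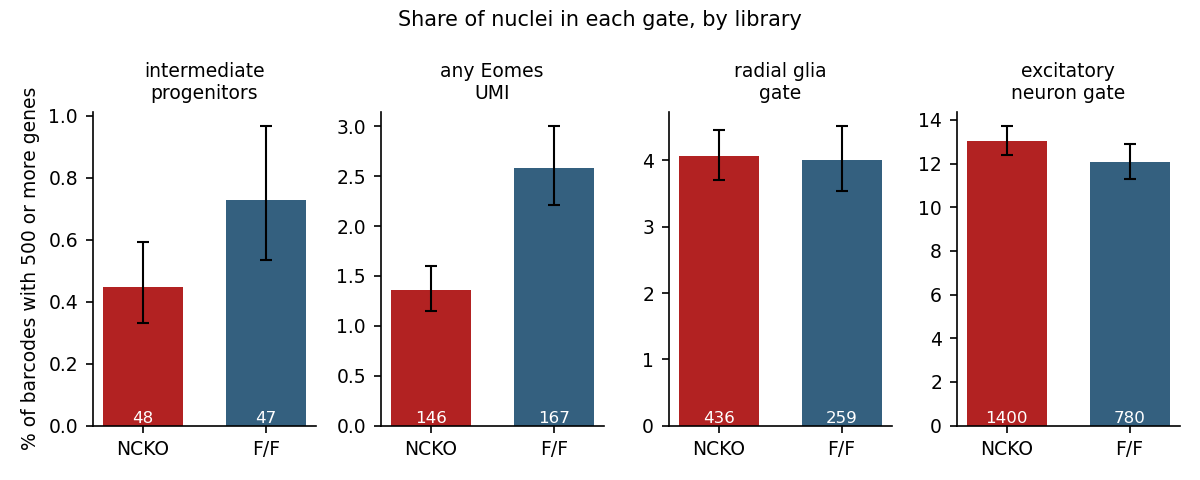
Shares of barcodes with at least 500 genes that fell in each gate, in percent, NCKO left of F/F, with exact 95% binomial intervals. Intermediate progenitors were 0.447% of NCKO barcodes and 0.727% of F/F barcodes, while the radial glia gate held 4.06% of NCKO and 4.005% of F/F barcodes. Barcodes with any Eomes UMI (1.36% in NCKO and 2.58% in F/F) are shown as a value that the gate itself used.

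Gated intermediate progenitors made up a smaller share of the NCKO library. They were 0.447% of NCKO barcodes (95% Clopper-Pearson interval 0.330 to 0.593) and 0.727% of F/F barcodes (0.534 to 0.965), a ratio of 0.615 (0.403 to 0.940). The radial glia gate (no Eomes, at least 3 of 7 radial glia genes) held 436 NCKO and 259 F/F nuclei, 4.06% of NCKO and 4.005% of F/F barcodes, a ratio of 1.01 (0.868 to 1.19). Its 7 genes were Pax6, Sox2, Hes1, Hes5, Slc1a3, Tnc and Veph1, and it allowed no UMI of Neurod6, Aqp4 or the exclusion genes. The excitatory neuron gate (Neurod2 and Neurod6, no Eomes, no exclusion gene) held 13.0% of NCKO and 12.1% of F/F barcodes, a ratio of 1.08 (0.990 to 1.18). Within these 3 gates of the excitatory lineage, intermediate progenitors were 2.55% in NCKO and 4.33% in F/F, a ratio of 0.589 (0.385 to 0.900). Set against radial glia alone, they were 9.92% of the 484 nuclei of both gates in NCKO and 15.4% of 306 in F/F. Over the alternative gates tried, the share ratio ran between 0.436 and 0.705. The last was reached when nuclei with an exclusion gene were kept (55 in NCKO and 47 in F/F), with an interval that included 1 (0.469 to 1.06), so the size of the difference rests in part on the 7 NCKO nuclei that these genes removed. Thinning before the gate gave 0.543, also with an interval that included 1 (0.195 to 1.49). A barcode share depends on every other nucleus in the library, so a smaller share and a smaller number of these cells in the tissue cannot be told apart.

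The members were of similar depth in both libraries. They held 209587 UMIs in NCKO and 190904 in F/F, with a median per nucleus of 3114 UMIs (range 1200 to 13830) in NCKO and 2828 UMIs (831 to 26193) in F/F. A few deep nuclei carried much of each sum: the 3 deepest held 18.04% of the NCKO UMIs and 28.9% of the F/F UMIs. The highest doublet scores of each library included 8 NCKO members and 2 F/F members. No member barcode occurred in both libraries, although 15 barcodes of the series did.

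Markers of other cell types were mostly near 0 but not equal between the labels. Endothelial genes had 0 UMIs in either library, oligodendrocyte precursor genes 2 in NCKO and 1 in F/F, and microglia genes 10 UMIs in NCKO and 11 in F/F. Interneuron genes had 288 UMIs in 24 NCKO nuclei and 87 UMIs in 14 F/F nuclei, a ratio of summed levels of 3.02 (2.36 to 3.88). Adarb2, a gene of caudal-eminence interneurons, supplied 180 NCKO UMIs, 111 of them in 1 nucleus, and 22 F/F UMIs, while the GABA-synthesis gene Gad1 had 9 UMIs in NCKO and 5 in F/F and Sp8 none. Striatal genes had 27 UMIs in NCKO and 3 in F/F. Cajal-Retzius genes had 42 UMIs in NCKO and 3 in F/F, nearly all of them Reln (39 in NCKO and 3 in F/F), while Calb2 and Ebf2 were at 0. Mural and meningeal genes had 6 UMIs in NCKO and 7 in F/F, erythroid genes 12 UMIs in NCKO and 24 in F/F, and choroid plexus genes 0 UMIs in NCKO and 7 in F/F, the last all in 1 nucleus. The part of these other cell types in the results below was not tested beyond leaving out the nuclei with interneuron genes.

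**Figure D2:**
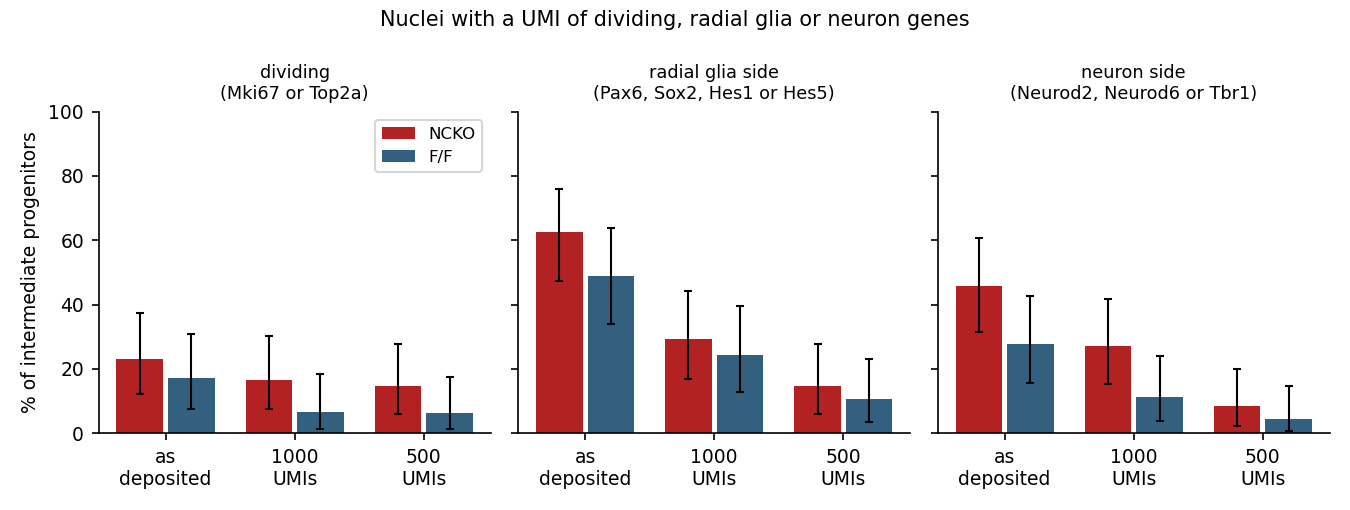
Percent of gated intermediate progenitors with a UMI of dividing-cell genes (Mki67 or Top2a), radial glia side genes (Pax6, Sox2, Hes1 or Hes5) and neuron side genes (Neurod2, Neurod6 or Tbr1), as deposited and after thinning to 1000 or 500 UMIs, NCKO left of F/F, with exact 95% binomial intervals. As deposited, the neuron side held 45.8% of NCKO and 27.7% of F/F members, with intervals that overlap.

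Genes outside the gate placed the members along the lineage. Mki67 or Top2a, expressed in dividing cells, was detected in 11 of 48 NCKO nuclei (22.9%) and 8 of 47 F/F nuclei (17.0%), a difference of 5.90 percentage points (Newcombe interval -11.7 to 23.1). After each nucleus was thinned to 1000 UMIs, the counts were 8 of 48 in NCKO (16.7%) and 3 of 45 in F/F (6.67%), a difference of 10.0 points (-4.80 to 24.5). Both counting intervals include 0. Excitatory neuron nuclei, which do not divide, showed these genes in 3.93% of NCKO and 2.56% of F/F nuclei at a median depth of 5509 UMIs in NCKO and 5378 UMIs in F/F. After thinning these were 0.929% in NCKO and 0.641% in F/F. In the radial glia gate the order was the other way, with 16.3% in NCKO and 23.2% in F/F (difference -6.88 points, -13.4 to -0.599). The difference between these gates in that contrast was not tested.

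A UMI of Pax6, Sox2, Hes1 or Hes5 was found in 30 NCKO members (62.5%) and 23 F/F members (48.9%), a difference of 13.6 points (-7.75 to 33.7) that shrank to 4.72 points after thinning. A UMI of Neurod2, Neurod6 or Tbr1 was found in 22 NCKO members (45.8%) and 13 F/F members (27.7%), a difference of 18.2 points (-2.65 to 37.4). After thinning these were 13 of 48 (27.1%) in NCKO and 5 of 45 (11.1%) in F/F, and the interval still reached below 0 (-1.55 to 32.5). The radial glia gate gave 12.8% in NCKO and 12.4% in F/F. That gate required 0 UMIs of Neurod6, so its shares count Neurod2 or Tbr1 only and are in part set by the gate. Nuclei with a gene of neither side were 7 of 48 in NCKO (14.6%) and 20 of 47 in F/F (42.6%), a difference of -28.0 points (-45.5 to -8.53) at the deposited depth. Genes of both sides at once were found in 11 NCKO and 9 F/F nuclei. Thinned to 500 UMIs, the difference was 3.95 points on the radial glia side (-11.2 to 18.9) and 4.08 points on the neuron side (-7.84 to 16.3).

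Across the 1687 genes with at least 50 UMIs in the members, outside the gate genes, the libraries differed little on the whole. Their levels are in CPM, the UMIs of a gene scaled to the same total over the members of each library. The log2 ratio of CPM plus a pseudocount of 5, NCKO over F/F, had a median of -0.02. At least 2-fold higher in NCKO were 48 genes (2.85%) and at least 2-fold lower 43 genes (2.55%), 5.39% in all. Only 13 of the higher and 14 of the lower genes reached 100 UMIs, and in 6 and 7 of all those called, 1 nucleus held at least 50% of the UMIs of the higher library. Such 2-fold shares are the background against which the gene lists are read.

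The targeted gene itself was thinly sampled. Men1 (chr19:6334979-6340891, + strand, GRCm38) had 2 UMIs in the NCKO members and 7 UMIs in the F/F members, a ratio of 0.260 (0.0264 to 1.37). In the radial glia gate it had 19 UMIs in NCKO and 20 in F/F (ratio 0.552), in the excitatory neuron gate the ratio was 1.44, and over all barcodes 676 UMIs in NCKO against 310 in F/F gave 1.31. Men1 was therefore not lower in the NCKO library as a whole. A 3′ count also includes any transcript that keeps its 3′ end after a deletion, so it does not check the genotype label.

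Epha4 (chr1:77367185-77515088, - strand), the receptor named in the title, was lower in the NCKO members. It had 90 UMIs in 30 NCKO nuclei and 112 UMIs in 37 F/F nuclei, 429 CPM (345 to 528) in NCKO and 587 CPM (483 to 706) in F/F, a ratio of 0.732 (0.548 to 0.975). Per nucleus its median was 280 CPM in NCKO and 528 CPM in F/F, with a mean ± SD over nuclei of 431 ± 502 CPM (n = 48) in NCKO and 763 ± 812 CPM (n = 47) in F/F, so the nuclei of the libraries overlap widely. The ratio was 0.702 in the radial glia gate, 0.610 in the excitatory neuron gate and 0.627 over all barcodes, and 0.737 in Eomes nuclei with fewer partner genes, which lie outside the gate. Among dividing members Epha4 had a ratio of 1.01, among non-dividing members on the neuron side 0.877, and among all others 0.519 (0.290 to 0.891). The Eph receptors did not share 1 direction. Epha3 was higher in the members (410 UMIs in NCKO against 262 in F/F, log2 0.51), Epha5 lower (260 UMIs in NCKO against 301 in F/F, log2 -0.34), and the Eph and ephrin list, with 3 of 8 measured genes above 0 and 5 below, summed to a ratio of 0.992 (0.908 to 1.08). Epha6 was past 2-fold lower (33 UMIs in NCKO against 65 in F/F, log2 -1.09), but it was found in more NCKO nuclei, 10 against 5 in F/F, and was higher in the radial glia gate (log2 1.84). With no partner gene required, Epha6 turned to log2 0.33.

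**Figure D3:**
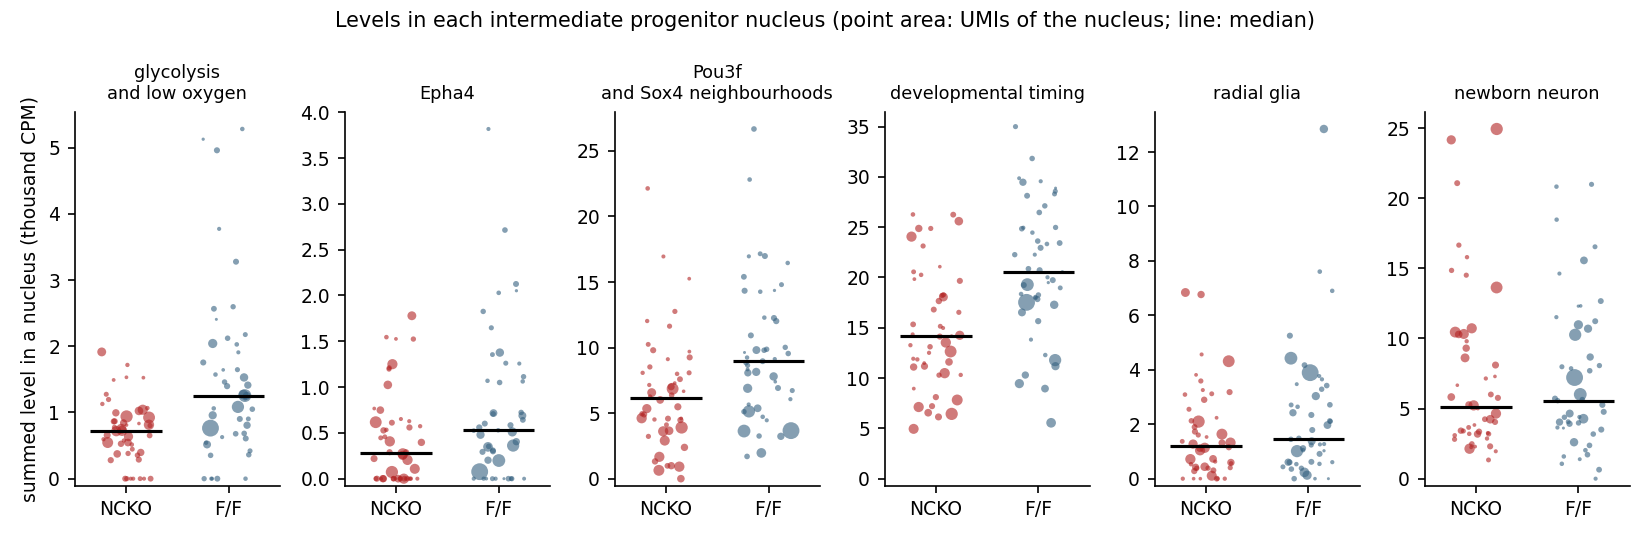
Summed levels in single gated nuclei on an axis in units of 1000 CPM, NCKO left of F/F, with a line at the median of each library and point area by the UMIs of the nucleus. Medians for the glycolysis and low-oxygen genes were 720 CPM in NCKO and 1253 CPM in F/F, and for Epha4 280 CPM in NCKO and 528 CPM in F/F, with overlapping nuclei.

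Genes of glycolysis and of the response to low oxygen were lower in the NCKO members. Glycolysis breaks down glucose for energy, and many of its enzymes are induced together with Vegfa when oxygen is low, through HIF transcription factors. The list summed to 158 UMIs in 41 NCKO nuclei and 249 UMIs in 42 F/F nuclei, 754 CPM (641 to 881) in NCKO and 1304 CPM (1147 to 1477) in F/F, a ratio of 0.578 (0.470 to 0.708). Per nucleus the middle 50% lay between 392 and 954 CPM in NCKO and between 653 and 1968 CPM in F/F. The ratio was 0.530 in the radial glia gate, 0.594 in the excitatory neuron gate and 0.626 in Eomes nuclei outside the gate. Within the members it was 0.763 among dividing nuclei, 0.679 on the neuron side and 0.415 among the others. It ran between 0.480 and 0.652 over the alternatives that gave a value.

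Single genes of that list were sparse. Of 26 detected members only Mxi1, a MAX-binding repressor that opposes Myc (21 UMIs in NCKO against 32 in F/F, log2 -0.71), and Kdm3a, a histone H3K9 demethylase induced by low oxygen (21 UMIs in NCKO against 30 in F/F, log2 -0.62), reached 50 UMIs, and neither was 2-fold lower. The next genes fall below that minimum and were chosen after their values were seen. P4ha1, a collagen prolyl hydroxylase subunit, had 17 UMIs in NCKO and 28 in F/F, Vegfa, the vascular growth factor, 10 UMIs in NCKO and 23 in F/F, and Ldha, lactate dehydrogenase A, 2 UMIs in NCKO and 9 in F/F. The direction was not uniform, since the oxygen sensor Egln1 had 12 UMIs in NCKO and 5 in F/F.

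The promoters of both genes that reached the minimum are shown because HIF factors are known to bind the motif ACGTG, which was searched on both strands. They run from 250 bases before the start to 50 after it, in RefSeq for GRCm38.p6. P4ha1, the next gene by UMIs, is shown beside them as one with a match, a choice made after its values were seen. Mxi1 lies at chr19:53310256-53310555 (+ strand), Kdm3a at chr6:71632868-71633167 (- strand) and P4ha1 at chr10:59323046-59323345 (+ strand), and capitals mark the match on the other strand.
Mxi1: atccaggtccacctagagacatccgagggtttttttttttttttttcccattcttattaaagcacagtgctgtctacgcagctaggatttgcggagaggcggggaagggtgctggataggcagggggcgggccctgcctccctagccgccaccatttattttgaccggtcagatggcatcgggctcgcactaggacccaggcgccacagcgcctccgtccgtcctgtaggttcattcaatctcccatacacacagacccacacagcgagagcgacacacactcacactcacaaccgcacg
Kdm3a: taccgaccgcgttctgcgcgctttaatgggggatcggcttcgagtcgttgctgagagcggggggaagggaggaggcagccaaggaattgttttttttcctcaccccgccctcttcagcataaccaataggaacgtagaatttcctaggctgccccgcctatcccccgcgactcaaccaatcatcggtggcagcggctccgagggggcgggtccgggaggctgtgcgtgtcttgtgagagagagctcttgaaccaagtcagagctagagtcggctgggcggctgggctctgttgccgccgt
P4ha1: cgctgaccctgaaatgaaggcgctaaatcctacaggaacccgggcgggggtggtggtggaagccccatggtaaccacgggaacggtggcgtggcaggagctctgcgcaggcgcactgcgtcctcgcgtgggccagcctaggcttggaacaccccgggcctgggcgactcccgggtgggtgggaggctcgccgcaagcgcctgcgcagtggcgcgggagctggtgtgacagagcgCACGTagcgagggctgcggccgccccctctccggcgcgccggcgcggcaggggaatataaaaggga
The windows shown for Mxi1 and Kdm3a held no ACGTG on either strand and that of P4ha1 held 1. No other form of the site was searched, so a window without a match may hold one. A window of Vegfa (chr17:46032328-46032627, - strand), the gene with the next most UMIs of those named, held no match either. Mxi1 and Kdm3a have 3 listed windows each and Vegfa 2, and only 1 of each is given here. Of 26 listed genes with a window, 14 held the motif in the first one (53.8%), against 19.7% of 27025 genes with a window. These genes were listed for glycolysis and the response to low oxygen, so their share says nothing about NCKO against F/F. A match is a description of letters and not a bound site.

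**Figure D4:**
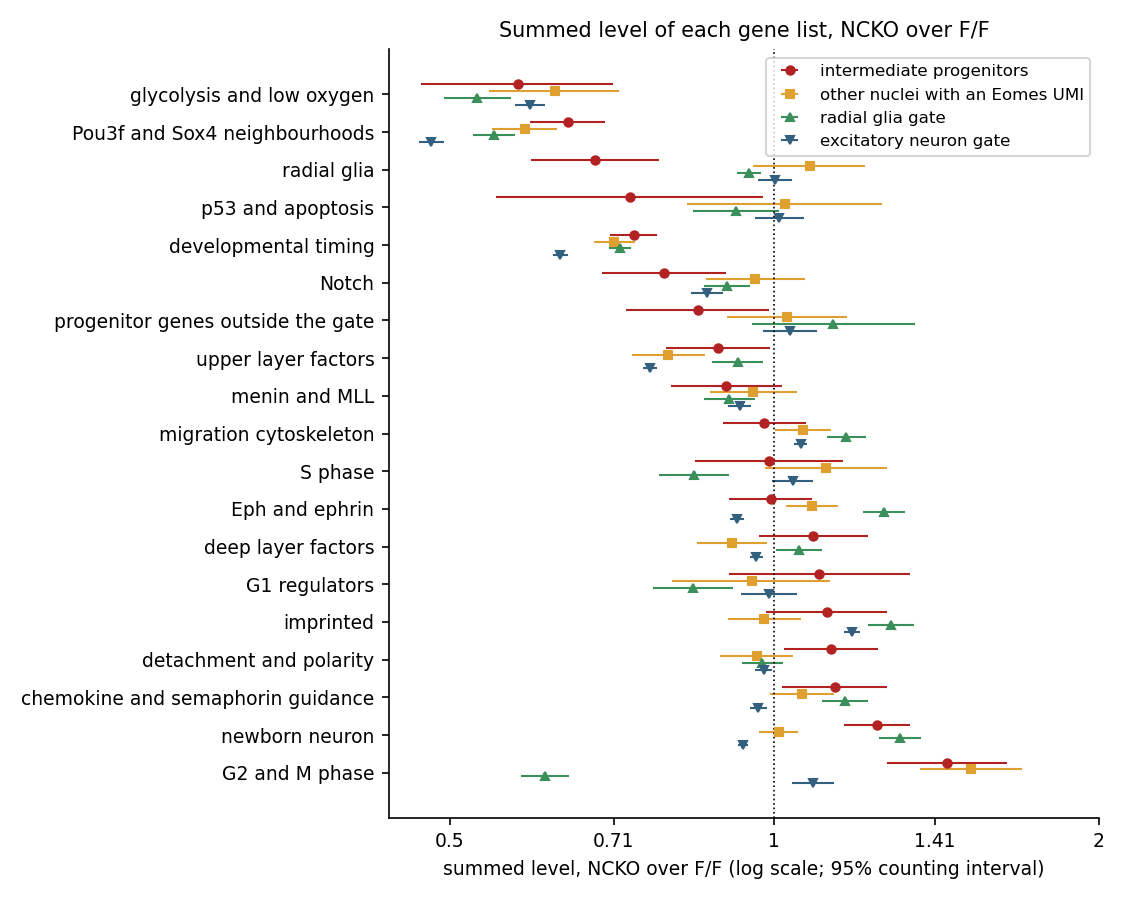
Ratio of summed levels, NCKO over F/F, for each gene list in intermediate progenitors, other nuclei with an Eomes UMI, the radial glia gate and the excitatory neuron gate, on a log axis with 95% counting intervals. The Pou3f and Sox4 list stands at 0.644, 0.587, 0.550 and 0.481, and the G2 and M phase list at 1.45, 1.52, 0.613 and 1.09.

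Transcripts of the Pou3f and Sox4 list were lower in the NCKO members. Pou3f2 and Pou3f3 encode POU factors and Sox4 and Sox11 encode SoxC factors of neuronal differentiation. The list adds long noncoding RNAs from their chromosome regions, not all of them adjacent. All 7 measured genes of the list lay below 0, with a median log2 ratio of -0.39 and none past 2-fold. Over all 1687 genes the median was -0.02, and 2.55% were lower by at least 2-fold. Summed, they had 1043 UMIs in NCKO and 1476 UMIs in F/F, a ratio of 0.644 (0.594 to 0.697). The noncoding RNAs carried most of the difference. Gm29260 (chr1:41781808-41939560, + strand, lincRNA) had 465 UMIs in 40 NCKO nuclei and 718 UMIs in 44 F/F nuclei, log2 -0.76. It is not adjacent to Pou3f3, which lies at chr1:42695768-42703176. Pantr1, the divergent lincRNA whose start lies next to that of Pou3f3, had 71 UMIs in NCKO and 121 in F/F (log2 -0.89), and 2610307P16Rik had 204 UMIs in NCKO and 284 in F/F (log2 -0.61). The factors themselves differed less. Sox11 had 129 UMIs in NCKO and 154 in F/F (log2 -0.39) and Pou3f3 24 UMIs in NCKO and 28 in F/F (log2 -0.34). Pou3f2 had 44 UMIs in NCKO and 46 in F/F (log2 -0.19) and Sox4 56 UMIs in NCKO and 57 in F/F (log2 -0.16). The same sum had ratios of 0.550 in the radial glia gate, 0.481 in the excitatory neuron gate and 0.587 in Eomes nuclei outside the gate. For Gm29260 the log2 ratio was -1.29 in those nuclei, -1.10 in the radial glia gate and -2.48 in the excitatory neuron gate.

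Genes of developmental timing, which change as the cortex passes from early to late neurogenesis, were lower as a sum, though not every gene was lower. The list had 2848 UMIs in NCKO and 3503 UMIs in F/F, a ratio of 0.741 (0.705 to 0.778), with a median per nucleus of 14144 CPM in NCKO and 20542 CPM in F/F. Mir99ahg, the host transcript of a microRNA cluster that includes let-7, had 1144 UMIs in NCKO and 1722 in F/F (log2 -0.72), Zbtb20, a zinc finger factor of late progenitors, 603 UMIs in NCKO and 744 in F/F (log2 -0.44), and Nfia 289 UMIs in NCKO and 321 in F/F (log2 -0.29). The related factors Nfib (562 UMIs in NCKO and 473 in F/F, log2 0.11) and Nfix (149 UMIs in NCKO and 113 in F/F, log2 0.26) stood on the other side of 0. Of 7 measured genes 4 were below 0 and 3 above, with none past 2-fold. The ratio of the sum was 0.988 among dividing members, 0.788 on the neuron side and 0.570 among the others. Chosen after its values were seen, Igf2bp1, an RNA-binding protein gene of early progenitors, had 2 UMIs in 2 NCKO nuclei and 21 UMIs in 13 F/F nuclei, a ratio of 0.0867 (0.00986 to 0.355), with 0.0851 in the radial glia gate and 0.0635 in Eomes nuclei outside the gate. Grb10, an imprinted growth-factor adaptor gene likewise chosen, had 3 UMIs in NCKO and 17 in F/F, a ratio of 0.161 (0.0302 to 0.556), and 0.0484 in the radial glia gate.

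Genes of the stage before were lower as a sum in the NCKO members. The radial glia list had 372 UMIs in NCKO and 497 UMIs in F/F, a ratio of 0.682 (0.594 to 0.781), with 4 of 5 measured genes below 0, a median log2 ratio of -0.61 and 1 of them, Slc1a3, past 2-fold. Of all 1687 genes 2.55% were lower by at least 2-fold. Slc1a3, a glutamate transporter of glia, had 65 UMIs in 21 NCKO nuclei and 125 UMIs in 28 F/F nuclei (log2 -1.07). Ptprz1, a receptor phosphatase, had 143 UMIs in NCKO and 199 in F/F (log2 -0.61) and the matrix gene Tnc 30 UMIs in NCKO and 48 in F/F (log2 -0.79). Pax6 went the other way, with 55 UMIs in 28 NCKO nuclei and 29 UMIs in 20 F/F nuclei (log2 0.77). The direction of the sum was not shared by all members. Among dividing members it had 128 UMIs in NCKO and 54 in F/F, a ratio of 2.19 (1.58 to 3.07), against 0.410 (0.338 to 0.497) among non-dividing members on the neuron side and 0.685 (0.510 to 0.913) among the others. On that neuron side 102 of the 291 F/F UMIs lay in 1 nucleus, the deepest of F/F (26193 UMIs). The next deepest, of 15141 UMIs, stood at 4425 CPM for this list. Both also held genes of the interneuron list (1107 and 1453 CPM). The deepest stood at 3894 CPM for the radial glia list, near the 3497 CPM of all F/F nuclei on the neuron side (1435 CPM in NCKO). The value of 0.410 was not computed without these nuclei. The sum moved to 0.979 without the nuclei that held interneuron genes and to 0.929 with no partner gene required. It turned to 1.11 when nuclei were thinned to 1000 UMIs before the gate, which left 9 NCKO and 10 F/F nuclei. In the radial glia gate its ratio was 0.947, and it was 1.08 in Eomes nuclei outside the gate.

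Genes of newborn neurons summed to 1892 UMIs in NCKO and 1384 UMIs in F/F, a ratio of 1.25 (1.16 to 1.34). Of 13 measured genes 9 were above 0, with a median log2 ratio of 0.23, and 2 were past 2-fold higher: Sema3c, a secreted semaphorin (80 UMIs in 18 NCKO nuclei against 16 UMIs in 8 F/F nuclei, log2 2.12), and Tiam2, a Rac exchange factor (110 UMIs in NCKO against 42 in F/F, log2 1.24). Of all 1687 genes 2.85% were higher by at least 2-fold. Dab1, the reelin signal adaptor, had 198 UMIs in NCKO and 93 in F/F (log2 0.95). Neurod2 and Neurod6, under the minimum and named because they define the neuron side, had 24 and 32 UMIs in NCKO, against 9 and 13 in F/F. The ratio of the sum was 1.57 in non-dividing neuron-side nuclei, 1.04 among dividing members and 0.549 among the others. With each nucleus given equal weight the ratio was 1.003, and with nuclei thinned to 1000 UMIs before the gate it turned to 0.626, so the sum rests on deep nuclei.

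Cell cycle genes gave no single direction. The G2 and M phase list had 622 UMIs in NCKO and 392 UMIs in F/F, a ratio of 1.45 (1.27 to 1.64), and 0.613 in the radial glia gate. A single nucleus held 72 of these UMIs in NCKO and 100 in F/F, and the interval does not cover such spread between nuclei. The median per nucleus was 1040 CPM in NCKO and 918 CPM in F/F. Of 4 measured genes 3 were above 0, with a median log2 ratio of 0.35. Tmpo, a nuclear lamina gene, had 49 UMIs in NCKO and 23 in F/F (log2 0.93), Top2a 49 UMIs in NCKO and 33 in F/F (log2 0.43) and the microtubule gene Ckap5 40 UMIs in NCKO and 45 in F/F (log2 -0.30). This sum was 0.778 when at least 3 partner genes were required and 0.347 when nuclei were thinned before the gate. S phase genes summed to 332 UMIs in NCKO and 306 in F/F, a ratio of 0.988 (0.844 to 1.16), and G1 regulators to a ratio of 1.10 (0.908 to 1.34).

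Among transcription factors of neuronal layers, the upper layer list summed to a ratio of 0.887 (0.793 to 0.992), with 7 of 9 measured genes below 0. Rorb, a layer 4 factor (19 UMIs in NCKO against 50 in F/F, log2 -1.48), and Lhx2, a cortical selector (14 UMIs in NCKO against 36 in F/F, log2 -1.43), were past 2-fold lower. Deep layer factors summed to 1.09 (0.968 to 1.22), and Ldb2, a LIM-domain cofactor of deep layer neurons, was past 2-fold higher (91 UMIs in NCKO against 27 in F/F, log2 1.58). Of all 1687 genes 2.55% were lower and 2.85% higher by at least 2-fold. Other progenitor genes outside the gate summed to 0.849 (0.729 to 0.989). Rhbdl3, a rhomboid gene, had 62 UMIs in NCKO and 94 in F/F (log2 -0.73), and Elavl4, a neuronal RNA-binding protein gene, 77 UMIs in NCKO and 87 in F/F (log2 -0.31).

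The remaining lists are given mainly by their sums. Notch pathway genes summed to a ratio of 0.790 (0.692 to 0.903), led by the coactivator Maml3 (171 UMIs in NCKO against 222 in F/F, log2 -0.51). Genes of menin, the MLL proteins and opposing histone enzymes summed to 0.903 (0.802 to 1.02). Among them 2 of 9 measured genes were past 2-fold lower, the X-linked demethylases Kdm5c (19 UMIs in NCKO against 36 in F/F, log2 -1.02) and Kdm6a (28 UMIs in NCKO against 52 in F/F, log2 -1.001), while Kmt2a, the gene of MLL1, had 51 UMIs in NCKO and 43 in F/F (log2 0.11). The share of all 1687 genes lower by at least 2-fold was 2.55%. Genes of detachment and polarity summed to 1.13 (1.02 to 1.25), migration and cytoskeleton genes to 0.979 (0.897 to 1.07), chemokine and semaphorin guidance genes to 1.14 (1.02 to 1.27) and imprinted genes to 1.12 (0.983 to 1.27). Genes of p53 and apoptosis, with no member at 50 UMIs, had 92 UMIs in NCKO and 114 in F/F (0.735, 0.552 to 0.976), and early response genes 33 UMIs in NCKO and 18 in F/F. Of 16 lists with a median, 10 medians were below 0 (62.5%), where 51.3% of all measured genes were below 0.

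**Figure D5:**
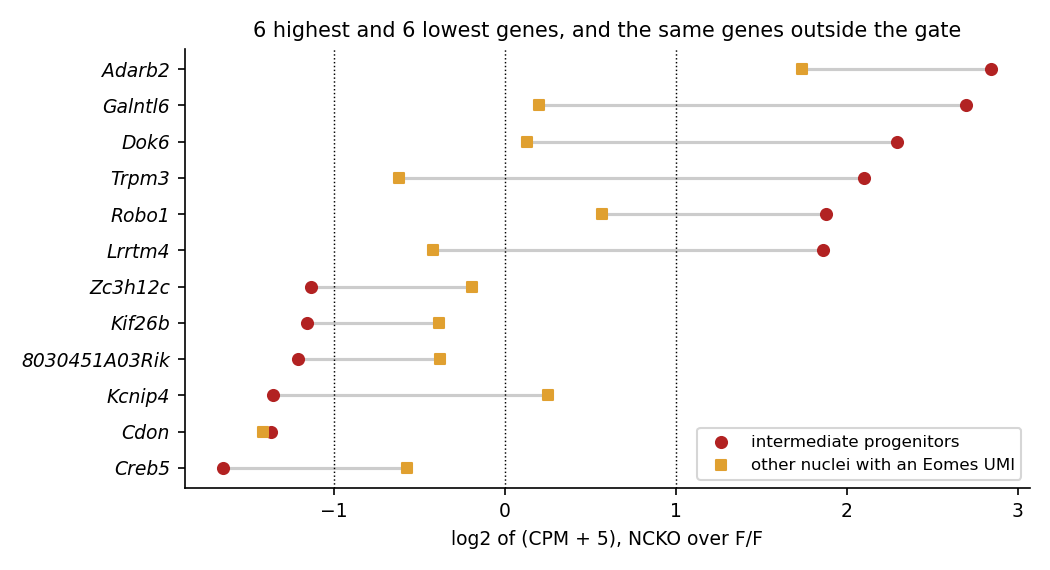
Log2 ratio, NCKO over F/F, of the 6 lowest and 6 highest genes with at least 100 UMIs in the gated nuclei, beside the same genes in Eomes nuclei outside the gate. Creb5 at -1.65 and Adarb2 at 2.84 are the extremes inside the gate, and outside it Creb5 stands at -0.57, Adarb2 at 1.74 and Trpm3, at -0.62, on the other side of 0.

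By size of ratio, the lowest genes with at least 100 UMIs were led by Creb5 and Cdon. Creb5, a CREB-family factor (chr6:53287270-53700376, + strand), had 28 UMIs in 13 NCKO nuclei and 82 UMIs in 25 F/F nuclei (log2 -1.65). Cdon, a hedgehog co-receptor (chr9:35421128-35507652, + strand), had 36 UMIs in 21 NCKO nuclei and 86 UMIs in 30 F/F nuclei (log2 -1.37). Sox6, an SRY-box factor, had 82 UMIs in 26 NCKO nuclei and 159 UMIs in 40 F/F nuclei (log2 -1.08), and Prdm16, a chromatin regulator of radial glia, 40 UMIs in NCKO and 80 in F/F (log2 -1.11). No single nucleus held 50% of the F/F UMIs of any of the 12. In Eomes nuclei outside the gate, 8 of the 12 were lower too, with a median log2 ratio of -0.38 and only Cdon past 2-fold (log2 -1.42). The rest of the 12 were Kcnip4, 8030451A03Rik (which overlaps Tnc, so their UMIs may be shared), Kif26b, Zc3h12c, Tox, Rnf180, Slc1a3 and Qki, between -1.36 and -1.04. Kcnip4 turned to log2 0.46 with at least 3 partner genes and to 1.15 without nuclei over 8000 UMIs, and 8030451A03Rik to 0.91 without the nuclei that held interneuron genes.

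The highest genes were led by Adarb2. It had 180 UMIs in 14 NCKO nuclei and 22 UMIs in 6 F/F nuclei (log2 2.84). In 3 of the 12, 1 NCKO nucleus held at least 50% of the UMIs: Adarb2 (111 of 180 UMIs), Trpm3, a cation channel (161 of 229), and Tafa1, a secreted protein gene (70 of 107). Robo1, a Slit receptor of migrating neurons (chr16:72308306-73046095, + strand), had 261 UMIs in 23 NCKO nuclei and 64 UMIs in 21 F/F nuclei (log2 1.88). In non-dividing neuron-side nuclei it had 206 of these UMIs in NCKO and 15 in F/F. In Eomes nuclei outside the gate 7 of the 12 were higher too, with a median log2 ratio of 0.10 and only Adarb2 past 2-fold higher (log2 1.74), while Tafa1 stood at -1.94. Others among them were Galntl6, Dok6, Lrrtm4, Ldb2, Ncam2, Tiam2 and Ppfia2, between 1.14 and 2.69. Trpm3 turned to log2 -0.56 without nuclei over 8000 UMIs, and with no partner gene required Tafa1 turned to -1.30 and Lrrtm4 to -0.015.

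Set against all other nuclei of their own library, the members shared a pattern that the gate did not use, given as a description and ranked after values were seen. Of 667 genes with at least 100 UMIs, 79 were at least 2-fold higher in members of both libraries and 52 at least 2-fold lower. Celsr1, a planar polarity cadherin, stood at 324 CPM against 9.98 CPM in the rest of NCKO, and at 309 CPM against 16.6 CPM in the rest of F/F. Rhbdl3 was higher by log2 3.53 in NCKO and 4.30 in F/F, and Gm29260 by 4.39 in NCKO and 3.44 in F/F. Chd7, a chromatin remodeler, and Cdk6, the G1 kinase, were among the highest in both libraries. Lowest in both were the glutamate receptor Grm5 (log2 -2.27 in NCKO and -2.64 in F/F) and the synaptic vesicle gene Syt1 (-2.23 in NCKO and -2.37 in F/F). Radial glia shared part of this, so the pattern as a whole is not particular to intermediate progenitors. Rhbdl3 was lower in the radial glia gate, at 54.2 CPM against 296 CPM in the members of NCKO and 52.0 against 492 CPM in F/F. Slco1c1 was higher there, at 503 CPM against 410 CPM in NCKO and 632 against 388 CPM in F/F. Gm29260 stood at 2219 CPM in the NCKO members and 1274 CPM in the NCKO radial glia gate, and at 3761 CPM in the F/F members and 2728 CPM in the F/F radial glia gate. Syt1 stood at 320 CPM in the members and 566 CPM in the radial glia gate of NCKO, and at 262 CPM in the members and 254 CPM in the radial glia gate of F/F. Celsr1 in the radial glia gate was 113 CPM in NCKO and 181 CPM in F/F. The gate genes are present by construction and cannot check the label of intermediate progenitors, and of the progenitor genes outside the gate Rhbdl3 was among the highest in both libraries.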

How the data were processed

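Nuclei of dissected embryonic mouse neocortex were sequenced in 1 library per genotype label (NCKO and F/F). The deposited files hold raw UMI counts for each gene and barcode, from Cell Ranger 6.1.0 per the file headers, on mm10 per the submitters' processing notes, which also name Seurat with no role. The sources used here do not say whether counting used strand. The NCKO file holds 10750 barcodes with 50115162 UMIs, the F/F file 6477 with 30116311. Of 33938 gene identifiers 32241 were found in GENCODE vM21 (GRCm38), used for positions.

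UMIs were summed over gated nuclei per library and given as CPM of those sums, where 1 UMI is 4.77 CPM in NCKO and 5.24 in F/F. Gene ratios are log2 of (CPM + 5), for genes with at least 50 UMIs, and are called at 2-fold. Intervals are exact Poisson for levels, conditional binomial for ratios, Clopper-Pearson for shares and Newcombe's for differences of shares. All are 95% intervals for counting error only. Thinning drew each nucleus once to 1000 UMIs, leaving out 0 NCKO and 2 F/F members. Doublets were scored with Scrublet (scanpy 1.11.5) and kept in the main values, and an alternative leaves out the highest 0.8% per 1000 barcodes. Levels were computed with Python 3.11.15, numpy 2.4.6, scipy 1.17.1 and pandas 2.3.3, and the calls were tested on simulated data.

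Named genes are Men1, Epha4, up to 4 members per list each way with the largest ratios, and the 12 highest and 12 lowest other genes with at least 100 UMIs. Exceptions are stated where they occur, and some genes that meet the rule are not reported here. The gate, the 21 gene lists and the 9 lists of other cell types were chosen with earlier results of these data known, so their direction is no independent evidence. The protocol in the labels speaks of male mice, while Y-linked genes had 0 UMIs in the members and Xist had 714 in NCKO and 596 in F/F, so the sex of the embryos is not used.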

Additional observations from a re-analysis of the deposited data

Results flagged for a closer look

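Several sums and 1 gene stood on opposite sides of no difference in intermediate progenitors and in a neighbouring gate of the same libraries. With 1 library per label the differences between gates were not tested.

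Kcnip4, a modulator of A-type potassium channels, had a log2 ratio of -1.36 in the members (170 UMIs in 21 NCKO nuclei, 398 UMIs in 15 F/F nuclei) and 1.08 in the radial glia gate, with 142 of its F/F UMIs in 1 nucleus. The summed G2 and M phase genes had a ratio of 1.45 in the members and 0.613 in the radial glia gate. The newborn neuron genes had a ratio of 1.25 in the members and 0.936 in the excitatory neuron gate, whose nuclei were chosen by Neurod2 and Neurod6 of this list. The detachment and polarity genes had 1.13 in the members and 0.977 in the excitatory neuron gate, and the chemokine and semaphorin guidance genes 1.14 and 0.966.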

How the results depend on the processing

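No paired analysis was possible because each label has 1 library and no replicate. Over 1860 alternative values 11 were counted as reversed, and 135 of the 175 that answer a comparison as the same. A value counted as the same could still change sign. The dividing share, NCKO minus F/F, was 5.90 points in the main gate. It was -10.1504 points with at least 3 of 6 partner genes and -10 points when nuclei were thinned before the gate. It stayed above 0 without the highest doublet scores (11.6667), with at least 2 Eomes UMIs (18.2266) and with at least 1000 genes (7.39958). The share of intermediate progenitors, the glycolysis and low-oxygen sum and Epha4 kept their direction under every alternative that gave a value, though the interval of the share ratio included 1 under the thinned gate (0.543) and with exclusion genes allowed (0.705).

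Without the highest doublet scores (40 NCKO and 45 F/F nuclei) the newborn neuron ratio was 1.36, G2 and M phase 2.03, Pou3f and Sox4 0.709 and developmental timing 0.783. With at least 2 Eomes UMIs, radial glia was 0.569 and G2 and M phase 1.72. With at least 3 of 6 partners (14 and 19 nuclei), 24 genes were called higher and 24 lower, newborn neuron was 1.09, G2 and M phase 0.778 and Kcnip4 turned to log2 0.46. Thinning to 1000 UMIs before the gate left 9 and 10 nuclei and 14 genes, with 0 called higher and 2 lower, radial glia 1.11, newborn neuron 0.626, G2 and M phase 0.347, Pou3f and Sox4 0.729 and developmental timing 0.931. With equal weight per nucleus 90 genes were higher, newborn neuron was 1.003 and G2 and M phase 1.79. With the stages weighted as in F/F, 37.5% of list medians were below 0 and newborn neuron was 1.10. A minimum of 20 UMIs gave 203 genes higher and 173 lower, a minimum of 100 gave 13 and 14.

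The next 4 alternatives were chosen after seeing the data. Without nuclei over 8000 UMIs (40 and 43 left) 28 genes were higher and 27 lower, newborn neuron was 1.04, G2 and M phase 2.19, developmental timing 0.780 and Men1 0, and Kcnip4 turned to 1.15 and Trpm3 to -0.56. With no partner required (129 and 164 nuclei) radial glia was 0.929 and newborn neuron 1.03, and Lrrtm4 turned to -0.015, Tafa1 to -1.30 and Epha6 to 0.33. Of the 24 leading genes, 2 were still 2-fold there. With exclusion genes allowed (55 and 47 nuclei) 81 genes were higher, 41.2% of list medians were below 0, radial glia was 0.784 and developmental timing 0.685. Without nuclei with interneuron genes (40 and 40) radial glia was 0.979 and Pou3f and Sox4 0.520, and 8030451A03Rik turned to 0.91. The cause of these changes was not tested. Depth limits single genes: 1 UMI is 4.77 CPM in NCKO, so a gene at 0 may lie under 14.3 CPM in NCKO and 15.7 CPM in F/F.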
